A study of Mus musculus with 4 samples.

Results

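The cells described are the barcodes of 1 mouse embryonic day E18.5 library that carry both Pdgfra, the receptor for platelet-derived growth factor A on oligodendrocyte precursors, and Olig1, a transcription factor of the oligodendrocyte lineage. A barcode was chosen if it had at least 1000 detected genes, at most 10% of its unique molecular identifiers (UMIs, counts of RNA molecules) from mitochondrial genes, at least 1 UMI of Pdgfra and at least 2 UMIs of Olig1. The rule found 155 of 3104 kept barcodes, or 4.99% (95% exact Clopper-Pearson interval 4.25 to 5.82), among 6296 kept barcodes of the whole series. The same rule found 324 of 1148 kept barcodes in the other E18.5 library, and 32 of 1168 and 27 of 876 in the E15.5 libraries.

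All libraries came from embryos that carried a green reporter named for Nestin and a red reporter named for doublecortin, from a cross of Nestin-GFP heterozygotes with DCX-mRFP homozygotes. The tissue was either cerebral cortex or the GE (ganglionic eminence, a ventral forebrain domain known as a source of GABAergic neurons). It was dissociated, and its green cells were sorted and run as droplet libraries of RNA 3′ ends. No drug or mutation separates the groups. The 4 groups, 1 for each age and tissue, held 1 library each, so every ratio below has no replicate check and no test between groups was made. Intervals cover counting error only. How many embryos were pooled, and of which sex, was not known here.

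The library is labelled cortex E18.5, but the deposited files name the other region for each of the 4 libraries, and regional genes go against the label. Among the barcodes that are not members, the ventral gene Nkx2-1 had 118 counts per 1000000 (CPM, summed UMIs over the summed total) in the library labelled cortex E18.5 and 1.54 CPM in that labelled GE E18.5. The dorsal gene Neurog2 had 5.42 and 257 CPM. Libraries are therefore named below as "labelled cortex" and "labelled GE". The 4 libraries held 14528712 to 31173997 UMIs. The members held 1692724 UMIs, with a median of 9579 per barcode (range 2676 to 66537), beside a median of 8755 in the other 2949 kept barcodes. Between 0 and 7 barcodes were shared by any pair of libraries, and none of them was a member.

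Oligodendrocyte precursors arise in the embryonic forebrain from ventral progenitors first and from dorsal progenitors later, and keep dividing before some of them exit the cycle and become myelinating oligodendrocytes. Olig2 and Olig1 set up the lineage, Sox10 sustains it and later drives myelin genes, and signalling through the receptor Pdgfra supports division and survival. Gpr17 and Bcas1 mark cells that have started to differentiate, ahead of the myelin proteins.

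Several genes of precursor identity had far higher levels in the members than in the other barcodes of the library. Sox10 had 213 UMIs in members, 164 CPM, and 28 UMIs in the other barcodes, 1.25 CPM, a ratio of 131 (exact conditional binomial interval 87.8 to 201). Lhfpl3, a tetraspan protein gene used as a precursor marker, had 140 against 0.806 CPM, a ratio of 174 (107 to 299). Pcdh15, which encodes a protocadherin, had 69.2 against 0.716 CPM, and C1ql1, which encodes a secreted C1q-like protein, had 189 against 9.13 CPM. Cspg4, the NG2 proteoglycan gene, had 54.6 against 2.37 CPM, and Olig2 had 971 against 158 CPM. These ratios describe barcodes that the rule picked by 2 genes of the same lineage, and support no test.

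Across all measured genes (at least 20 CPM on either side), 329 of 7588 were at least 2-fold higher in members, or 4.34%, and 216, or 2.85%, were at least 2-fold lower. Of the precursor identity list, 20 of the 24 genes outside the rule's own pair were measured. Of these, 18 were called higher and none lower, with a median log2 ratio of 2.50 beside 0.02 over all genes. A gene that reached the minimum in members alone could hardly be called otherwise, and 10 of the 20 did so, Sox10, Lhfpl3, Pcdh15, Cspg4 and C1ql1 among them. Of the other 10, which reached it in the other barcodes too, 8 were called higher (median 1.99). Luzp2 (log2 ratio 0.49) and Tmem100 (-0.32) were the measured genes of the list that were not called. Nkx2-2, a homeobox gene of the lineage, had 26 UMIs in members, just under the minimum for a measured gene, and 3.04 CPM in the others. Neu4, a sialidase gene of later precursors, had 0.769 CPM in members.

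**Figure D1:**
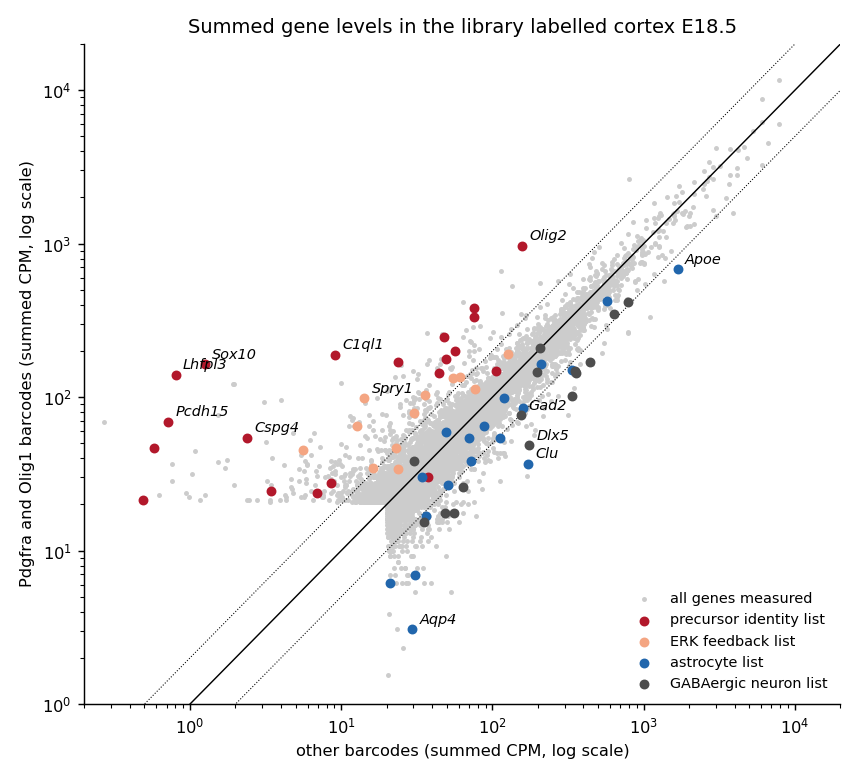
Summed levels of each measured gene in the Pdgfra and Olig1 barcodes (vertical) against the other barcodes of the same library (horizontal), both in CPM on log scales, with list genes in colour; genes at 0 on either side are not drawn. The solid line marks equal levels and the dotted lines a 2-fold difference; Sox10, Lhfpl3 and Pcdh15 lie far above the lines, while Aqp4 and Clu lie below them.

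The share of barcodes with a UMI gave the same picture barcode by barcode. Sox10 was found in 92 of 155 members (59.4%, 51.2 to 67.2), in 17 of 2949 other barcodes (0.576%) and in none of 538 barcodes with at least 2 UMIs each of Gad2 and Dcx. By those genes these barcodes resemble young GABAergic neurons. At least 5 of 20 genes of the G2 and M phases of division were found in 35.1% of them, so the set is not of neurons alone. Their median was 8123.5 UMIs, and a count of 0 there allows a share with a UMI of up to 0.558%. Lhfpl3 was found in 48.4% of members and 0.743% of the Gad2 and Dcx barcodes, and C1ql1 in 55.5% and 2.97%. Olig2 was found in 98.1% and 21.9%. With every barcode thinned to 4000 UMIs, Sox10 was found in 39.0% of 146 members and Lhfpl3 in 31.5%. Olig2, at 971 CPM, is less often missed by sampling than Sox10, at 164 CPM, so these shares do not rank how evenly the genes are spread. Each member had a median of 10 of the 24 identity genes outside the rule, beside 2 in the other barcodes (6 and 1 after thinning).

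**Figure D2:**
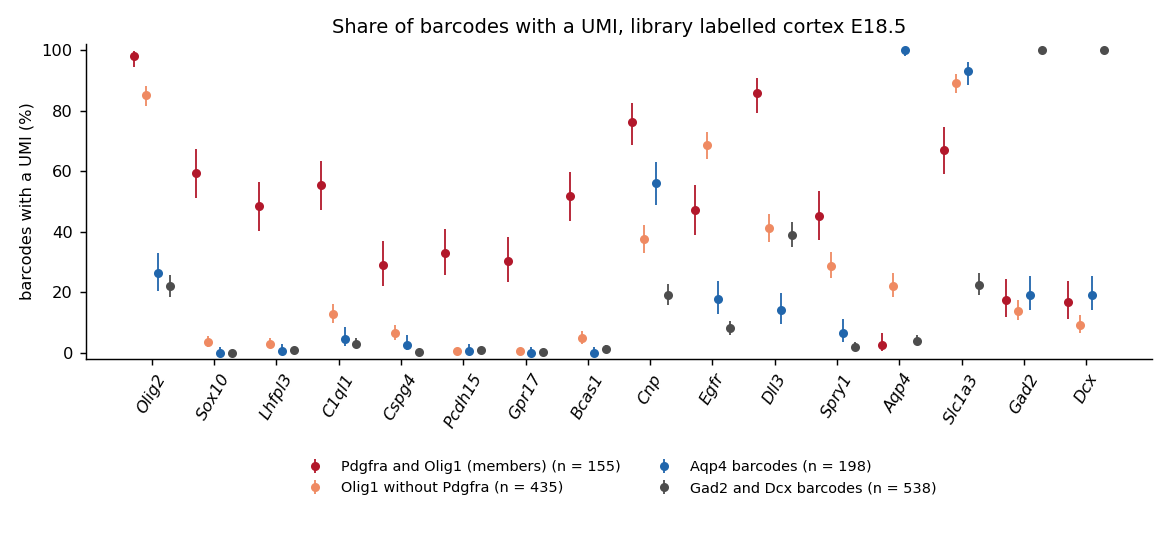
Share of barcodes with at least 1 UMI of each gene (vertical, percent) in 4 sets of the library labelled cortex E18.5, with points for the share and bars for the 95% Clopper-Pearson interval. Sox10, Lhfpl3, Pcdh15 and Gpr17 are near 0 in all sets but the members, whereas Olig2 and Egfr are also frequent among Olig1 barcodes without Pdgfra; Aqp4, Gad2 and Dcx are at 100% where they define the set.

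The 20 genes with the largest ratios among those of at least 50 CPM in members, in order, were Gpr17, Lhfpl3, Sox10, Pcdh15, Cntn1, Bcas1, Ppp1r16b, Enpp2, Lnx1, Plppr1, Cspg4, C1ql1, Arpp21, B3gat2, Kcnd2, Rph3a, Lrp1b, Pik3r1, Xylt1 and Spry1. Cntn1, a contactin gene of axon and glia contacts, had 121 against 1.93 CPM. Enpp2, the gene of the enzyme autotaxin, had 93.0 against 3.09 CPM. Pik3r1, the regulatory subunit of phosphoinositide 3-kinase, a route used by growth factor receptors, had 264 against 36.8 CPM. On GRCm38, Sox10 lies at chr15:79154908-79165240, Lhfpl3 at chr5:22746059-23275597, Pcdh15 at chr10:73099342-74649737 and C1ql1 at chr11:102939264-102946688.

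Promoter windows of 250 bases before a RefSeq start (build GRCm38.p6) were read for 12 of these 20 genes, 26 windows in all. They were searched on both strands for a SOX motif, ACAAAG, and an E-box, CAGCTG, the kinds of site that SOX and basic helix-loop-helix factors such as Sox10 and Olig2 are known to bind. The SOX letters were in 11.5% of the 26 windows and in 16.5% of all 32851 windows, and the E-box letters in 26.9% and 13.0%, with several windows per gene. These 4 windows hold no annotated exon and are shown because their genes are among the 20, with matches in capitals: a SOX match in Pik3r1, an E-box match in Arpp21, and none in Pcdh15 and Cntn1. A match is a string of letters in a window, not a bound site.
Pcdh15, chr10:73821617-73821866, plus strand: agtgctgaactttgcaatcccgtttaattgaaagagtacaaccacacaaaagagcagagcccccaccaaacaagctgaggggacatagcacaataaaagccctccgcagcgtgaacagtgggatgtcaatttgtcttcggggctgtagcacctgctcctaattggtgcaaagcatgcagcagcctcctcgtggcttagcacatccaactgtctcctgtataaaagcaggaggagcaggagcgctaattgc
Cntn1, chr15:92050915-92051164, plus strand: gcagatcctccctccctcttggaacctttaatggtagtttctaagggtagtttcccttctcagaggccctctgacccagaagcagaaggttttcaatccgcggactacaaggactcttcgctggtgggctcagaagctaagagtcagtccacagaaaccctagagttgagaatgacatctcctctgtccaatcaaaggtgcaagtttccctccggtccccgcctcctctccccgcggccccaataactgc
Pik3r1, chr13:101692631-101692880, minus strand: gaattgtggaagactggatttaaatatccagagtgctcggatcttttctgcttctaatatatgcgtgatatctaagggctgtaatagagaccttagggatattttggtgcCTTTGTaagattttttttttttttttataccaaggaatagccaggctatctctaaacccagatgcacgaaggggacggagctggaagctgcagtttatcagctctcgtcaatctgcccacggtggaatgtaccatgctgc
Arpp21, chr9:112217352-112217601, minus strand: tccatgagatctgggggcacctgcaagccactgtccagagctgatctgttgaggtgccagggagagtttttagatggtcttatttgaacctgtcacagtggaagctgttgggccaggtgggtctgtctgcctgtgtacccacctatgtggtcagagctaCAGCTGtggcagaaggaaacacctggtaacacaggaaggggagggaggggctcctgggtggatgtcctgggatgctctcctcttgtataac

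Some markers of cells that have left the precursor state were found in members, and others had no UMI. Of the committed oligodendrocyte list, 7 of 15 genes found in the files were measured and 4 were called higher, 3 of which reached the minimum in members alone. Gpr17, a receptor of newly committed cells, had 69.2 against 0.269 CPM and was found in 47 of 155 members (30.3%) and 2 of 538 Gad2 and Dcx barcodes. Bcas1 had 121 against 1.97 CPM, Itpr2 28.4 against 5.28 CPM, and Fyn, a kinase of process outgrowth, 296 against 146 CPM. Bmp4 and Enpp6, which mark newly formed oligodendrocytes, had no UMI in any member, and Myrf, the master regulator of myelin genes, had 2.31 CPM.

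Of 14 myelin genes, Cnp and Gjb1 were measured and called higher, and Gjb1 reached the minimum in members alone. Cnp, an enzyme gene active early in the lineage, had 257 against 46.4 CPM, and the connexin gene Gjb1 had 20.8 against 0.0895 CPM. Mog, Mag, Opalin, Mal and Fa2h had no UMI in members, which limits each to 3 counts in 1301179. Mbp stood at 10.8 CPM in members and 7.12 in the others.

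Feedback genes downstream of receptor kinases were mostly called higher in members, and receptor genes other than Pdgfra were not. Of 12 measured genes of the ERK feedback list, 9 were called higher and none lower, with a median log2 ratio of 1.22. Of the 8 that reached the minimum in the other barcodes too, 5 were called higher. Spry4 and Spry1, which encode Sprouty inhibitors of the pathway, had 45.3 against 5.55 CPM and 98.4 against 14.2 CPM. Dusp6, an ERK phosphatase gene, had 65.3 against 12.7 CPM, and the ETS factor gene Etv5 had 103 against 35.6 CPM. Of 7 measured receptor genes beside Pdgfra, none was called higher and Fgfr2 and Pdgfrb were called lower, with Fgfr2 at 13.8 against 38.0 CPM. Egfr, the epidermal growth factor receptor of glial progenitors, had 107 against 62.5 CPM, a log2 ratio of 0.77 that was not called.

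Surface, matrix and channel genes known from precursors were called higher in part. Of 9 measured channel and receptor genes, 6 were called higher and Ackr3 lower, with a median log2 ratio of 1.48. The potassium channel gene Kcnd2 had 58.4 against 4.84 CPM and the glutamate receptor gene Gria2 had 289 against 82.9 CPM. Of 15 measured adhesion and guidance genes, 7 were called higher and none lower (median 0.98). Of 13 measured proteoglycan and matrix genes, 5 were called higher and Sparc and Tnc lower (median 0.88). Of the genes that reached the minimum in the other barcodes too, 2 of 5 channel, 2 of 8 adhesion and 2 of 9 matrix genes were called higher. Bcan, which encodes brevican, had 356 against 115 CPM, and Omg, an oligodendrocyte-myelin glycoprotein gene, had 39.2 against 1.75 CPM. Cholesterol synthesis genes, which oligodendrocytes use heavily when they myelinate, were called in neither direction, 0 of 17 measured, with a median log2 ratio of 0.17.

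Notch ligand genes stood apart from Notch target genes. Dll3 and Dll1, ligands of the Delta family, had 666 against 114 CPM and 247 against 64.3 CPM, and were found in 85.8% and 67.7% of members. Hes5 and Hes1, target genes of the pathway, had log2 ratios of -0.45 and -0.67 and were not called. Of the 14 measured Notch genes, Dll1, Dll3 and Dner were called higher and Notch3 lower. In the list of glial intermediate progenitor genes, all 13 of which were measured, Dll1, Dll3 and Sox9 were called higher and Insm1 lower (median log2 ratio 0.23). Sox9, a glial fate factor, had 552 against 206 CPM, and Insm1, a factor of neurogenic intermediate progenitors, had 165 against 454 CPM. Of 11 measured BMP and WNT genes, Id4 alone was called, lower by a log2 ratio of -1.07, and none of 5 measured hedgehog genes was called.

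GABAergic neuron genes were mostly called lower in members than in the rest of the library, and general neuronal and astrocyte genes in part. Of 15 measured GABAergic neuron genes, 10 were called lower and none higher (median log2 ratio -1.25), and of 9 measured general neuronal genes, 4 were called lower. Dlx5 had 48.4 against 176 CPM and Stmn2, a microtubule regulator of young neurons, had 76.1 against 315 CPM. Of 18 measured astrocyte genes, 8 were called lower (median -0.92). Aqp4, the water channel gene of astrocytes, had 3.07 against 29.4 CPM, and Clu had 36.9 against 172 CPM. Radial glia genes differed less, with 2 of 13 measured genes called lower (median -0.43). A gene that reached the minimum in the other barcodes alone could hardly be called other than lower, and such genes were not counted apart.

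Division genes were present, but less frequent than in the other barcodes of the library. At least 5 of 20 G2 and M phase genes were found in 50 members (32.3%, 25.0 to 40.2) and in 44.8% of the other barcodes, and at least 5 of 20 S phase genes in 52.3% and 67.6%. After thinning, the G2 and M shares were 28.8% and 40.2%. None of 20 G2 and M genes was called in the summed comparison (median log2 ratio -0.41), but 17 were called lower when barcodes were thinned before the rule (median -1.29). Of 20 S phase genes, Cdca7, Uhrf1 and E2f1 were called lower (median -0.68). Ccnd2, a cyclin gene of progenitors, had 1585 against 3919.7 CPM, and the cycle inhibitor gene Cdkn1c had 196 against 57.8 CPM. Of 9 measured cycle inhibitor genes, Cdkn1c alone was called higher and 1 was called lower (median log2 ratio -0.28). At least 5 G2 and M genes were found in 46.2% of Olig1 barcodes without Pdgfra and 35.1% of the Gad2 and Dcx barcodes. For Aqp4 barcodes with under 2 UMIs of Olig1 the share was 15.7%. In the library labelled GE E18.5 it was 36.4% in members and 35.1% in the others (25.0% and 25.5% after thinning).

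A nearer comparison, added after seeing the data, set the members against 435 barcodes of the same library with at least 2 UMIs of Olig1 and none of Pdgfra (median 9629 UMIs). Here 233 of 7640 genes were called higher in members, or 3.05%, and 283 lower, or 3.7%. Of 20 measured identity genes, 12 were called higher and Tmem100 lower (median log2 ratio 1.34). Of the 12 that reached the minimum in the Olig1 barcodes too, 5 were called higher. Sox10 had 164 against 6.95 CPM, Lhfpl3 140 against 3.21 CPM, and Bcas1 121 against 7.49 CPM. Pcdh15 had 90 UMIs in members and 3 in the Olig1 barcodes, a ratio of 86.2 (28.6 to 426). Olig2, at 971 against 554 CPM, and Sox8, at 200 against 121 CPM, were not called. The Olig1 barcodes held a median of 5 of the 24 identity genes outside the rule, between the members' 10 and the 2 of all other barcodes. Aqp4 barcodes with under 2 UMIs of Olig1 held a median of 6. After thinning, the medians were 3 in the Olig1 barcodes and 3 in the Aqp4 barcodes, beside 6 in members. This count therefore does not set the Olig1 barcodes apart from astrocyte-like barcodes. ERK feedback genes were also mostly shared, with Spry4 and Phlda1 the 2 of 12 called higher.

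Among the lists, astrocyte genes had the most members called lower in the Pdgfra and Olig1 barcodes than in the Olig1 barcodes. Of 18 measured astrocyte genes, 17 were called lower (median log2 ratio -1.82). Genes that reached the minimum in the Olig1 barcodes alone could hardly be called otherwise, and were not counted apart. Slc1a3, a glutamate transporter gene of glia, had 424 against 1344 CPM, and Apoe, a lipid carrier gene, had 679 against 2270.0 CPM. The Notch targets Hes1, Hes5 and Nrarp, with Lfng and Notch3, were called lower, with Hes5 at 239 against 814 CPM. Dll1 and Dll3, in the same list of 14 measured genes, were called higher. Radial glia genes were called lower in 7 of 13 cases (median -1.10), matrix genes in 4 of 13 with 4 higher, and cholesterol synthesis genes in 2 of 18. Of 6 measured receptor genes beside Pdgfra, Fgfr1, Fgfr2 and Fgfr3 were called lower as well. Another 1 was called higher, and it reached the minimum in members alone. Id1, Id2 and Id3, responders to BMP signals, were the 3 of 11 measured BMP and WNT genes called lower, with Id3 at 164 against 821 CPM. Egfr had 107 against 184 CPM, a log2 ratio of -0.78, and was found in 47.1% of members and 68.7% of Olig1 barcodes (21.2% and 43.8% after thinning). GABAergic neuron genes leaned the other way, with 5 of 12 measured genes called higher in members (median 0.90), but the median was -0.60 with only the members of their main cluster and -0.18 after thinning. Of the 10 that reached the minimum in the Olig1 barcodes too, 3 were called higher. A barcode with few Pdgfra transcripts can miss the rule by sampling, and 52 of the 435 lay in the cluster that holds most members.

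**Figure D3:**
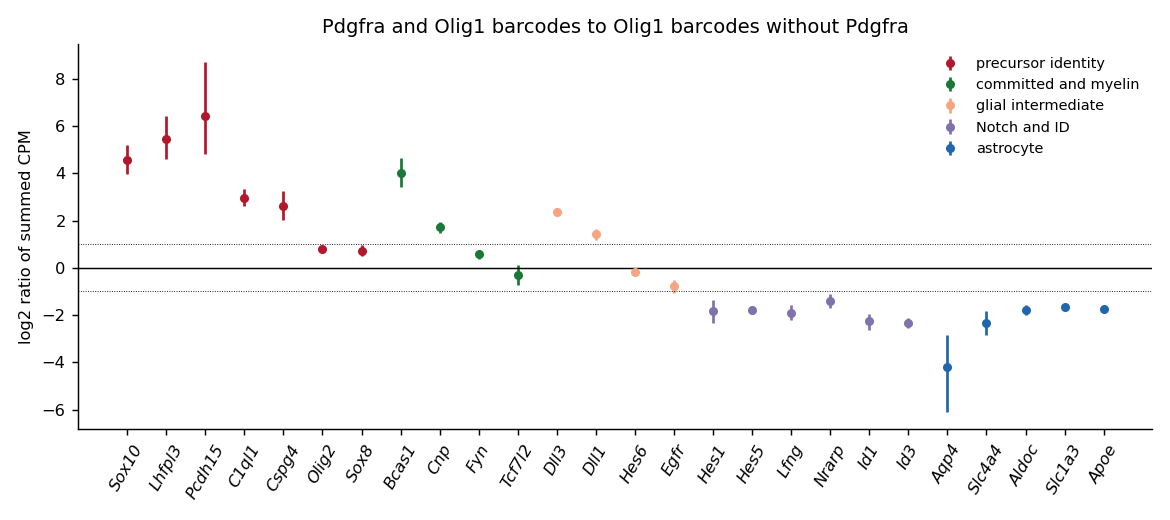
Log2 ratio of summed CPM, members to Olig1 barcodes without Pdgfra (vertical), for genes of 5 groups, with bars for the exact conditional binomial interval. The dotted lines mark 2-fold. The precursor genes drawn are a chosen part of the identity list, and all but Olig2 and Sox8 lie above the upper line. Over the whole list, 12 of 20 measured genes were called higher and Tmem100 lower. Egfr lies between the lines. The genes of the Notch and ID group, drawn because they were called lower, and of the astrocyte group lie below the lower line. Dll3 and Dll1, Notch ligand genes drawn with the glial intermediate group, lie above the upper line.

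The members were not 1 uniform group. When the library was clustered without Pdgfra and Olig1, 101 of 155 (65.2%, 57.1 to 72.6) fell in 1 cluster of 159 barcodes, led by Sox10, Lhfpl3, C1ql1, Bcas1, Cntn1, Enpp2 and Gpr17. Sox10, Lhfpl3 and C1ql1 allow the name oligodendrocyte precursor-like. Gpr17 and Bcas1, also among its leading genes, mark cells that have started to differentiate, and Gpr17 was found in 41.6% of its members. The name therefore does not tell precursors from newly committed cells. The other 54 lay elsewhere: 25 in a cluster led by genes such as Gas1 and Ntsr2, 16 in one led by the division genes Ube2c, Kpna2 and Fam83d, and 13 in 5 further clusters. Clusters were built from all other genes, so the following values describe the split and test nothing.

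Members inside the cluster had higher levels of identity genes and lower levels of division genes than those outside. The 24 identity genes outside the rule summed to 5533 CPM inside and 1949 outside, and the committed list to 1194 and 492 CPM. The G2 and M phase list summed to 292 CPM inside and 6162 outside, and the S phase list to 1119 and 4120 CPM. Top2a, a topoisomerase gene of dividing cells, had 28.3 CPM inside and 919.8 outside, and was found in 11.9% and 88.9% of barcodes. Sox10 had 287 and 58.5 CPM, and Matn4, a matrilin gene, 98.3 and 2.85 CPM. Egfr had 86.7 and 124 CPM. The astrocyte list summed to 957 and 2915 CPM and the GABAergic neuron list to 937 and 2776 CPM.

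Signs of mixed barcodes moved with the same split. By a score against simulated doublets, 1 of 101 inside members (0.99%) and 9 of 54 outside (16.7%) were doublet-like, and UMIs of both Xist and a Y-linked gene were found in 3 and 10 of them. The median depth was 8031 UMIs inside and 14184.5 outside. Over the library, 10 of 155 members (6.45%) and 67 of 2949 other barcodes (2.27%) were doublet-like. The part that doublets and depth have in the division, astrocyte and neuron levels of the outside members was not tested. With only the 101 inside members, 19 of 21 measured identity genes were called higher against the other barcodes, an alternative chosen after seeing the data. All 20 G2 and M genes were then called lower (median log2 ratio -4.05). Neither list was left out when the clusters were built, so these counts describe the choice of cluster and test nothing.

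**Figure D4:**
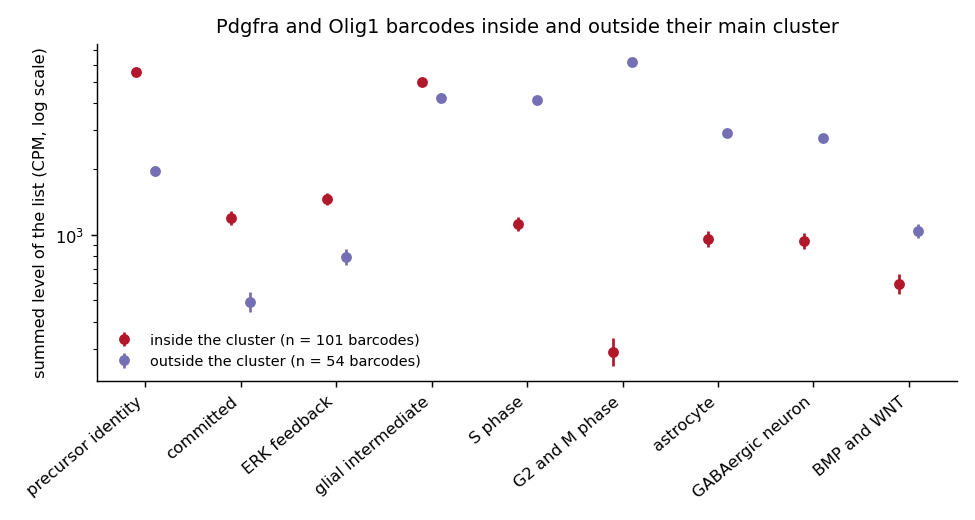
Summed level of 9 gene lists in CPM (vertical, log scale), with Pdgfra and Olig1 left out, for members inside their main cluster and for those outside, with bars for the exact Poisson interval. The inside members are higher in precursor identity, committed and ERK feedback genes, and the outside members in S phase, G2 and M phase, astrocyte and GABAergic neuron genes.

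Several genes differed in opposite directions when the members were split by Gpr17 and by Egfr, and 8 members had UMIs of both. The 47 members with a Gpr17 UMI had a median of 7469 UMIs and the 108 without had 9985. Egfr was found in 17.0% and 60.2% of them (7.32% and 26.7% after thinning), at 32.4 and 130 CPM. Lhfpl3 had 395 and 60.4 CPM, Pcdh15 191 and 31.2 CPM, and Cspg5, a neuroglycan gene, 1248 and 449 CPM. Top2a had 130 and 627 CPM. The 73 members with an Egfr UMI showed the reverse, with Lhfpl3 at 44.0 CPM beside 261 CPM in the 82 without, and Top2a at 701 beside 266 CPM. Dll3 was near equal on both sides of the Gpr17 split, at 684 and 660 CPM.

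Splits by Sox10 and by the division gene Mki67 are given beside these. The 92 members with a Sox10 UMI (median 9097.5 UMIs) had Dll3 at 861 CPM and Cspg5 at 856 CPM, beside 424 and 369 CPM in the 63 without (median 10246 UMIs). Top2a had 369 and 682 CPM on these sides. The 47 members with an Mki67 UMI were deeper, with a median of 14878 UMIs beside 8063.5 in the 108 without. Dll3 had 389 and 917 CPM in them and Lhfpl3 54.9 and 217 CPM, while Egfr was near equal at 111 and 103 CPM. The sides differ in depth, and the part of depth in these values was not tested.

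Sox10 varied with distance from the rule's thresholds. Just inside, 5 barcodes had 1 UMI of Pdgfra and 2 or 3 of Olig1, and none had Sox10. Just outside, none of 7 barcodes with Pdgfra but 1 UMI of Olig1 had Sox10, and 1 of 139 with 2 or 3 UMIs of Olig1 and no Pdgfra had it. Of the 105 members with at least 2 UMIs of Pdgfra and 4 of Olig1, 71 had Sox10 (67.6%), and of the 42 with 1 UMI of Pdgfra and at least 4 of Olig1, 21 had it. Most members without a Sox10 UMI thus lay well inside the threshold for Olig1. Of 35 barcodes with Pdgfra and no Olig1, none had Sox10 and 20 had Gad2. Pdgfra ranged from 1 to 13 UMIs in members (median 3) and Olig1 from 2 to 60 (median 22).

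Pdgfra is also known from connective tissue cells, and most of the fibroblast genes listed had no UMI in members. Of 12 fibroblast genes, 10 had no UMI in members, Col1a1, Col1a2, Col3a1, Dcn and Lum among them, and the list summed to 50.7 CPM beside 104 in the other barcodes. Within the members, the fibroblast list summed to 6.67 CPM inside the main cluster and 88.4 CPM outside it. The mural list summed to 29.2 and 114 CPM, the endothelial list to 4.61 and 14.5 CPM, and the microglial list to 25.4 and 53.9 CPM. Choroid plexus genes summed to 96.8 and 14.3 CPM, with Enpp2, which that list shares with the precursor genes above, at 93.0 of the 96.8 CPM. Dissociation stress genes summed to 666 and 505 CPM.

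The 324 members of the library labelled GE E18.5 allowed barcodes of the same rule to be compared between the E18.5 libraries. In that library members were 28.2% of kept barcodes (25.6 to 30.9), beside 4.99% in the library labelled cortex. There, 135 of the 324 lay in the cluster that held most members, and 50 in a cluster led by Cldn5, Cdkn1c and Itm2a, where 44 had Egfr and 3 had Lhfpl3. The member groups are thus drawn from unlike clusters. Identity genes hardly differed between the member groups. Sox10 had 164 CPM in members of the library labelled cortex and 126 in those of the library labelled GE, Lhfpl3 140 and 108 CPM, Pcdh15 69.2 and 63.2 CPM, and Gpr17 69.2 and 58.6 CPM. Of 21 measured identity genes none was called higher and Emid1 was called lower, at 6.92 and 29.8 CPM, which turned to a log2 ratio of 1.68 with cluster members alone. Over all genes, 47 of 7701 were called higher in the library labelled cortex, or 0.61%, and 140 lower, or 1.82%. ERK feedback and S phase genes were called in neither direction, 0 of 12 and 0 of 20.

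Regional and neuronal genes differed between the member groups. Of 13 measured ventral genes, 9 were called higher in members of the library labelled cortex (median log2 ratio 1.31). Of 9 measured dorsal genes, 7 were called lower and Wnt7b higher (median -1.80). Of the 10 ventral genes that reached the minimum in members of the library labelled GE too, 6 were called higher (median 1.19). Wnt7b reached it in members of the library labelled cortex alone. Genes that reached it in members of the library labelled GE alone were not counted apart. Of 12 measured GABAergic neuron genes, 7 were called higher (median 1.27), 6 of them among the 11 that reached the minimum in members of the library labelled GE. Gad2, Dlx1, Dlx2, Dlx6os1 and Sp9 were called higher in both the ventral and the GABAergic neuron lists. These counts thus overlap and are not separate results. Of 4 measured excitatory neuron genes, 3 were called lower (median -5.43, with a gene at 0 taken at 3 counts). Six3, a ventral homeobox gene, had 65.3 CPM in members of the library labelled cortex and 2.31 in those of the library labelled GE, a ratio of 28.2 (14.2 to 63.9). Nkx2-1, of the medial GE, had 50.7 and 2.31 CPM, and Dlx2 had 419 and 131 CPM. Eomes, of cortical intermediate progenitors, had no UMI among members of the library labelled cortex and 388 UMIs, 99.7 CPM, among those of the library labelled GE. Neurog2 had 5.38 and 154 CPM, and Pax6 36.9 and 128 CPM.

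In a split chosen after seeing the data, most Eomes UMIs of the library labelled GE lay in few, deep members. Of its 388 Eomes UMIs, 370 lay in 47 members of 2 clusters with Eomes and Neurog2 among their leading genes, and 18 in the other 277 members. Those 47 had a median of 33804 UMIs, beside 10475 in the other members, and 5 of them were doublet-like. Gad2 was found in 21 of the 47 and 18 of the 277, and Aqp4 in 15 and 3. In the 277, Eomes had 7.17 CPM, Neurog2 43.0 CPM and Pax6 73.7 CPM, while Six3 had 1.99 CPM and Nkx2-1 2.39 CPM. With the main cluster of each library alone, the log2 ratio was -2.0 for Neurog2 and -0.38, no longer called, for Pax6, and 3.74 for Six3 and 2.42 for Nkx2-1.

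Regional genes also differed between the other barcodes of these libraries. There, 101 of 7664 genes were called higher in the library labelled cortex (1.32%) and 289 lower (3.77%), with 10 of 15 measured ventral genes higher and 7 of 9 dorsal genes lower. Of the 140 genes lower between the member groups, 86 were at least 2-fold lower between the other barcodes too, and of the 47 higher, 21 were. Doublet-like barcodes were 10 of 155 and 8 of 324 members. Without them 5 ventral genes were called higher, and with cluster members alone 1 dorsal gene was called lower. In the library labelled cortex, Nkx2-1 had 16.7 CPM in members inside the cluster and 79.9 outside. The part that neurons or neuronal RNA in member barcodes have in the regional difference was not tested.

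**Figure D5:**
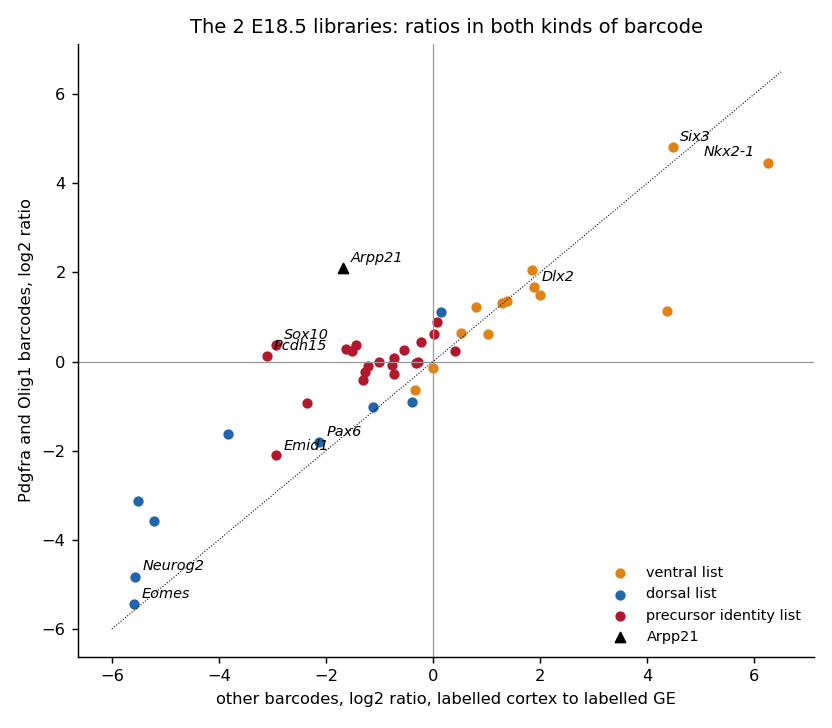
Log2 ratio of the library labelled cortex E18.5 to that labelled GE E18.5, in members (vertical) against the other barcodes (horizontal), for regional and identity genes and Arpp21, with a gene at 0 drawn at 3 counts. Ventral and dorsal genes mostly take the same sign on both axes, with the dorsal genes further from 0 in the other barcodes (median -3.83) than in members (median -1.80), identity genes other than Emid1 lie within 1 of 0 on the vertical axis, and Arpp21 lies alone in the upper left.

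Members against other barcodes gave overlapping calls within both E18.5 libraries. In the library labelled GE, 170 of 7846 genes (2.17%) were called higher in members and 211 (2.69%) lower, and 15 of 20 measured identity genes were called higher. Of the 329 genes higher in members of the library labelled cortex, 146 were also called higher there, and 90 of its 216 lower genes were called lower there. No gene was called in opposite directions. Sox10 had 126 CPM in members and 9.52 in the others of that library, and Lhfpl3 108 and 2.19 CPM.

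At E15.5 the rule found few barcodes, and they were deep. Members made up 2.74% (1.88 to 3.85) of kept barcodes labelled cortex E15.5 and 3.08% (2.04 to 4.45) of those labelled GE E15.5, with medians of 39679 and 60471 UMIs beside 16214.5 and 22913 in the other barcodes. Sox10 was found in 15 of 32 and 22 of 27 of them, but after thinning to 4000 UMIs in 6.25% and 25.9%, beside 39.0% at E18.5 in the library labelled cortex. When each barcode was thinned before the rule was applied, 10 barcodes (0.856%) and 5 (0.571%) were left at E15.5, and 87 of 2818 (3.09%) in the library labelled cortex E18.5. At least 5 G2 and M genes were found in 90.6% and 92.6% of the E15.5 members, beside 89.2% and 71.6% of the other barcodes. After thinning, the shares were 75.0% and 70.4% of members, beside 75.4% and 41.6% of the others. UMIs of both Xist and a Y-linked gene were found in 19 of 32 and 18 of 27 members, and in 35.5% and 55.4% of the other barcodes of those libraries. The part of doublets in the E15.5 members was not tested.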

How the data were processed

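The submitters deposited UMI counts per gene and barcode for 4 droplet libraries of sorted mouse forebrain cells. Per the submitters' processing notes the authors used Cell Ranger 1.3.1 and the mm10 genome, and Seurat, named without a version. The deposited counts were used as they stand, with groups taken from the labels.

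Barcodes needed at least 1000 genes and at most 10% mitochondrial UMIs. UMIs were summed over the barcodes of a set and divided by the set's total without 13 mitochondrial, 85 ribosomal protein and 10 haemoglobin genes, to give CPM. Ratios have exact conditional binomial 95% intervals, levels exact Poisson and shares exact Clopper-Pearson intervals. These cover counting error only. A gene was measured at 20 CPM or more on either side and called at 2-fold. A gene that reached the minimum on 1 side alone could hardly be called lower on that side. Such genes were counted apart for the first side of a comparison only. Pdgfra and Olig1 were left out of calls. A count of 0 was read as up to 3 counts. Shares were also taken after thinning each barcode to 4000 UMIs, and shallower barcodes were left out. Clusters came from scanpy 1.11.5 and leidenalg 0.10.2, with names only from listed markers. Doublets were scored against 2 simulated doublets per barcode and marked at 0.8% per 1000 barcodes, and were kept. TMM factors (edgeR 4.0.16) and size factors (DESeq2 1.42.0) served as other scalings only. The calls and intervals were run on simulated counts with 100 genes per direction changed 4-fold. Those counts were drawn from summed totals without spread between barcodes. The simulation therefore checks the arithmetic only, and neither calls near 2-fold nor the spread between barcodes.

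The text names genes of 32 lists, and the 20 largest ratios among genes of at least 50 CPM. The 10 smallest ratios were ranked too, but only some of these genes are named. The members, lists and comparisons were chosen with earlier results of these data known. Single libraries per group gave no test between groups.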

Additional observations from a re-analysis of the deposited data

Results flagged for a closer look

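Arpp21, which encodes a cyclic AMP regulated phosphoprotein, differed between the E18.5 libraries in opposite directions in members and in the other barcodes. In members it had 66 UMIs, 50.7 CPM, in the library labelled cortex and 46 UMIs, 11.8 CPM, in the library labelled GE, a log2 ratio of 2.10. In the other barcodes it had 3.18 and 10.2 CPM, a log2 ratio of -1.68. These 2 levels lie under the 20 CPM minimum of a measured gene, so the ratio of -1.68 is not a call. Arpp21 stood out because both ratios were past 2-fold with opposite signs, and the difference between them was not tested.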

How the results depend on the processing

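No paired analysis was possible because each group held 1 library. The members' share of 4.99% was 3.09% with barcodes thinned before the rule, 3.48% with at least 2 UMIs of Pdgfra, and 3.25% with cluster members alone. Thinning moved the E15.5 shares to 0.856% and 0.571%. Over all genes, the counts of called genes that moved by over 1.5 times were all larger than the reported ones. Counts within lists could be smaller, as given above for ventral and dorsal genes. Against the other barcodes, genes higher numbered 712 after thinning, 613 with a 5 CPM minimum, 1560 with no minimum and 708 with cluster members alone. Genes lower numbered 846, 611, 956 and 815, then 387 with at least 2 UMIs of Pdgfra, 399 by the mean of per-barcode CPM and 362 without the deepest 5% of barcodes. Between the E18.5 member groups, genes higher numbered 269, 163, 723 and 212 in the first order of settings, and genes lower 624, 536, 914 and 241, with 237 at 2 UMIs of Pdgfra. Against Olig1 barcodes, genes higher numbered 534, 537, 1160 and 576, with 355 at 2 UMIs of Pdgfra. Genes lower there numbered 807, 690, 1063 and 816, with 432 at 2 UMIs of Pdgfra and 447 by the per-barcode mean. Scaling by TMM or by median of ratios moved no count by over 1.5 times. Between the member groups, log2 ratios of called genes that turned sign were 0.82 after thinning and 1.68 with cluster members alone for Emid1, 0.68 with cluster members alone for Sparc, and -1.28 after thinning for Fam83d. Against Olig1 barcodes, Gad2 turned to -0.21 after thinning and -0.50 with cluster members alone. The cause was not tested.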

Other observations

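A few other genes called between the member groups had near-equal levels in the other barcodes of the same libraries. Lrp1b, a lipoprotein receptor family gene, had 52.3 CPM in members of the library labelled cortex E18.5 and 18.8 CPM in those of the library labelled GE E18.5, beside 6.18 and 7.72 CPM in the other barcodes. Its levels in the other barcodes lie under the 20 CPM minimum of a measured gene. Wls, which encodes a carrier needed to secrete WNT proteins, had 46.9 and 21.1 CPM in members and 24.8 and 27.5 CPM in the other barcodes. Both were chosen after their values were seen.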
